A study of Mus musculus with 2 samples.

Results

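Marco-high macrophages were the class II low peritoneal macrophages with the most Marco transcript in each library, 511 of the 13021 cell barcodes deposited. Marco encodes the macrophage receptor with collagenous structure, and its level chose the cells. Barcodes needed 500 or more genes, at most 10% mitochondrial UMIs (unique molecular identifiers, each standing for 1 captured transcript) and at least 1 UMI of Adgre1. They also needed under 5 UMIs per 10000 summed over the class II genes H2-Aa, H2-Ab1, H2-Eb1 and Cd74. Of the 5447 knockout and 4767 wild type cells that met this, the top 5% by Marco UMIs per 10000 were taken, 272 knockout and 239 wild type cells. They were set against the cells of the same library with 0 Marco UMIs, 4659 in the knockout library and 3600 in the wild type one, called Marco-zero cells here. Cells with Marco UMIs below the top 5% numbered 516 and 928.

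The cells were F4/80+ cells (F4/80 is the product of Adgre1) sorted by flow cytometry from the peritoneal lavage of Ankrd22-/- mice, a knockout made with CRISPR/Cas9, and of Ankrd22+/+ mice as the wild type. Each genotype had 1 library of 10x Genomics 3′ v3 chemistry. The labels give neither the number, age or sex of the animals, nor whether animals were pooled, nor the part of the gene removed. The study compared peritoneal macrophages with and without Ankrd22. Ankrd22 had 0 UMIs in Marco-high and Marco-zero cells of both libraries, so it did not check the genotype labels. Cells of 1 library are not replicates, so no test was made, and every interval covers counting error only. No value for variation between animals or libraries could be had.

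MARCO is a class A scavenger receptor of the macrophage surface, with an extracellular collagen-like stalk and a ligand-binding cysteine-rich domain. It binds bacteria, unopsonised particles and modified lipoproteins and takes part in their uptake. In the peritoneal cavity, resident macrophages clear microbes and dying cells without opsonins, and scavenger receptors and phosphatidylserine receptors such as TIM4 (Timd4) are part of that equipment. Large peritoneal macrophages depend on the transcription factor GATA6 and hold little class II, while small peritoneal macrophages are class II high.

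Marco-high cells had a median of 17028.5 UMIs and 3744 genes in the knockout library, against 16077 UMIs and 3509 genes for Marco-zero cells. Within the wild type library the medians were 15514 UMIs and 3341 genes in Marco-high cells and 14044.5 UMIs and 3007 genes in Marco-zero cells. Summed over cells, the Marco-high groups held 4922628 and 3837790 UMIs, and the Marco-zero groups 79839738 and 52650953. High Scrublet doublet scores were held by 5.88% of knockout and 3.35% of wild type Marco-high cells, against 5.43% and 4.81% of Marco-zero cells. The libraries shared 15 barcode sequences, and 0 of the Marco-high cells carried one.

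The choice rests on Marco alone, so its values describe the groups and test nothing. Marco (ENSMUSG00000026390) lies on chromosome 1, 120474538 to 120505024 on the minus strand of GRCm38. In the knockout library a Marco-high cell held 1 to 57 Marco UMIs with a median of 5.5, and in the wild type library 1 to 100 with a median of 10. On the scale of 10000 UMIs, knockout Marco-high cells ran from 1.44 to 47.3 with a median of 3.15, and wild type ones from 3.33 to 64.5 with a median of 5.84. Some members rested on few molecules: 8 knockout and 3 wild type cells held 1 Marco UMI, and 20 and 10 held 2. At the other end, 29 knockout and 44 wild type cells held 20 or more. The last knockout cells inside the threshold stood at 1.45, 1.45 and 1.44 per 10000 and the first outside at 1.44, 1.43 and 1.42. In the wild type library the last inside stood at 3.33, 3.33 and 3.33 and the first outside at 3.32, 3.30 and 3.28. No gap separated members from the cells ranked next to them.

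**Figure D1:**
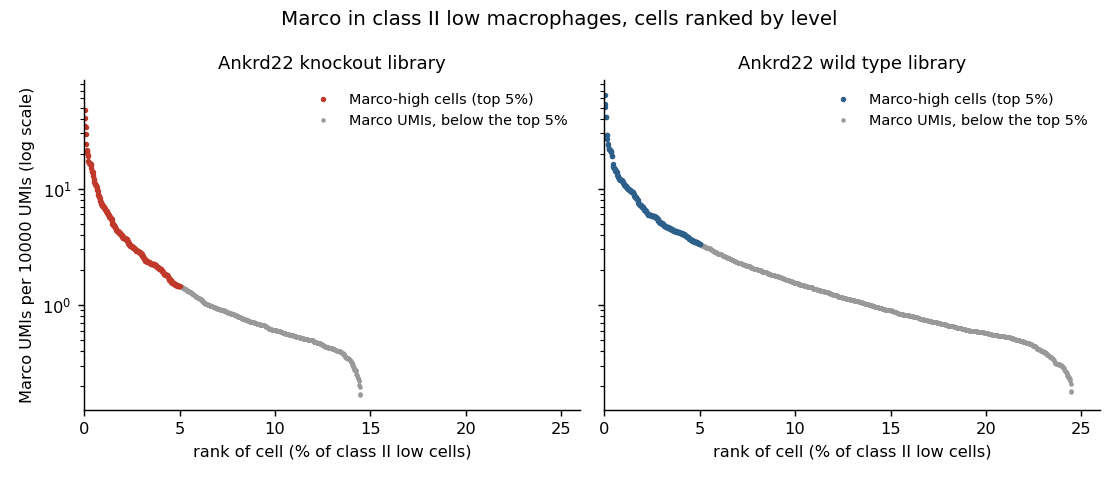
Marco UMIs per 10000 UMIs (log scale) of each class II low cell with a Marco UMI, against the cell's rank as a percent of class II low cells, knockout library on the left and wild type on the right. Coloured points are the Marco-high cells, which begin at 1.44 in the knockout library and 3.33 in the wild type one, and grey points the cells below the top 5%. The curves bend without a step.

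Marco transcript was concentrated in few cells. Marco-high cells held 78.3% of all Marco UMIs of class II low cells in the knockout library and 62.8% in the wild type one. The variance of Marco UMIs over cells was 13.9 times the mean in the knockout library and 15.8 times the mean in the wild type one. For Gata6 the same figures were 2.19 and 2.42, for Timd4 6.24 and 5.77, and for Arg1 19.6 and 11. Because the top 5% was taken in each library, the rule hides how the libraries differ in Marco. Of class II low cells 14.5% held a Marco UMI in the knockout library, against 24.5% in the wild type one, or 7.16% (exact binomial 95% interval 6.49 to 7.88%) and 13.9% (12.9 to 14.9%) once each cell was thinned to 5000 UMIs. At the wild type threshold, 2.35% of knockout cells (1.96 to 2.79%) stood against 5.01% of wild type cells (4.41 to 5.67%). As a check on free RNA, barcodes with B cell transcripts and no Adgre1 held a Marco UMI in 1 of 22 cases of the knockout library (exact interval 0.115 to 22.8%), against 0 of 28 of the wild type one (0 to 12.3%, or up to 10.7% at 3 counts). So few barcodes bound this background only loosely. Their median depths were 3469 UMIs in the knockout library and 4330 UMIs in the wild type one, against 16351 and 14661 UMIs in class II low cells.

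The label was checked against markers of macrophages and other cells. Gata6 was seen in 56.1% of knockout Marco-high cells after thinning, against 56.3% of Marco-zero cells, and in 48.9% against 49.0% in the wild type library. Icam2, a marker of large peritoneal macrophages, was seen in 96.9% of knockout Marco-high cells against 98.9% of Marco-zero cells, and in 88.4% against 93.9% in the wild type library. Genes of small and of recruited macrophages had a median log2 ratio of Marco-high over Marco-zero cells of 0.02 in the knockout library (6 measured, 1 at least 1.5-fold higher and 1 lower) and 0.58 in the wild type one (9 measured, 4 higher and 1 lower), or -0.14 and 0.39 under TMM factors. Cd74, measured in this list in both libraries (0.11 and 0.05), was held low in both groups of cells by the rule. The 4 on the higher side in the wild type library were Retnla, Lyve1, Folr2 and Mrc1, the mannose receptor gene. Lyve1, Folr2 and Mrc1 met the minimum level of a measured gene, given below, only in wild type Marco-high cells. The wild type count and median are thus no independent result. They also rest on other genes than the knockout ones, so the libraries cannot be compared by them. Mrc1 was at 7.31 CPM (the gene's UMIs scaled to a common group total) in knockout Marco-high cells against 1.82 CPM in Marco-zero cells, and at 24.8 against 5.74 CPM in the wild type library. Ccr2, a chemokine receptor gene of recruited cells, was seen after thinning in 0.382% of knockout Marco-high against 0.544% of Marco-zero cells, and in 0% against 0.585% in the wild type library. Of 7 T and NK cell markers 6 had 0 UMIs in knockout and 5 in wild type Marco-high cells. All 6 mesothelial and fibroblast markers and all 5 platelet markers were at 0 in both. B cell markers summed to 6.50 CPM in knockout Marco-high cells against 4.52 CPM in Marco-zero cells, and to 2.35 against 4.25 CPM in the wild type library. Neutrophil markers summed to 80.7 against 81.9 CPM and to 83.6 against 86.9 CPM, with S100a9, Ly6g, Camp, Ngp and Retnlg at 0. Erythroid transcripts were lower, at 16.3 CPM in knockout Marco-high cells against 110 CPM in Marco-zero cells, and at 2.35 against 53.5 CPM in the wild type library.

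Marco-high cells of both libraries held more transcript of single genes such as Arg1, Slc7a2, Maf, Abca1 and Timd4, and less of Prtn3, while besides the list of given markers no pathway list had more than 3 members past 1.5-fold in both. A gene was counted at 20 CPM or more in the higher of the groups and a log2 ratio past 1.5-fold, with 1 CPM added to each side. A gene under 20 CPM in 1 group could thus be counted through the other group alone. Of the 40 genes counted below, Galc, Malt1 and Armc8, among others, passed in both libraries only through Marco-high cells. In the knockout library 94 of 5284 genes passed 1.5-fold on the higher side in Marco-high cells (1.78%) and 12 at least 1.5-fold lower (0.227%). Within the wild type library 181 of 4928 were higher (3.67%) and 9 lower (0.183%). Of the 4714 genes measured in both libraries, 40 were higher in both (0.849%) and 4 lower in both (0.0849%). Above 0 in both lay 2498 genes (53%) and below 0 in both 1176 (24.9%), the background for counts by sign. Among these genes measured in both, the 40 were 51.9% of the 77 on the higher side in the knockout library and 29.4% of the 136 in the wild type one. No gene was 1.5-fold apart in opposite directions in the libraries. The median gene stood at a log2 ratio of 0.07 in the knockout library and 0.11 in the wild type one. TMM factors shifted all ratios by -0.15 and -0.20 and left 15 genes higher and 12 lower in both libraries, so that 55.6% of counted genes were higher, against 90.9% on library totals. All 40 genes stayed above 0 under TMM factors.

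**Figure D2:**
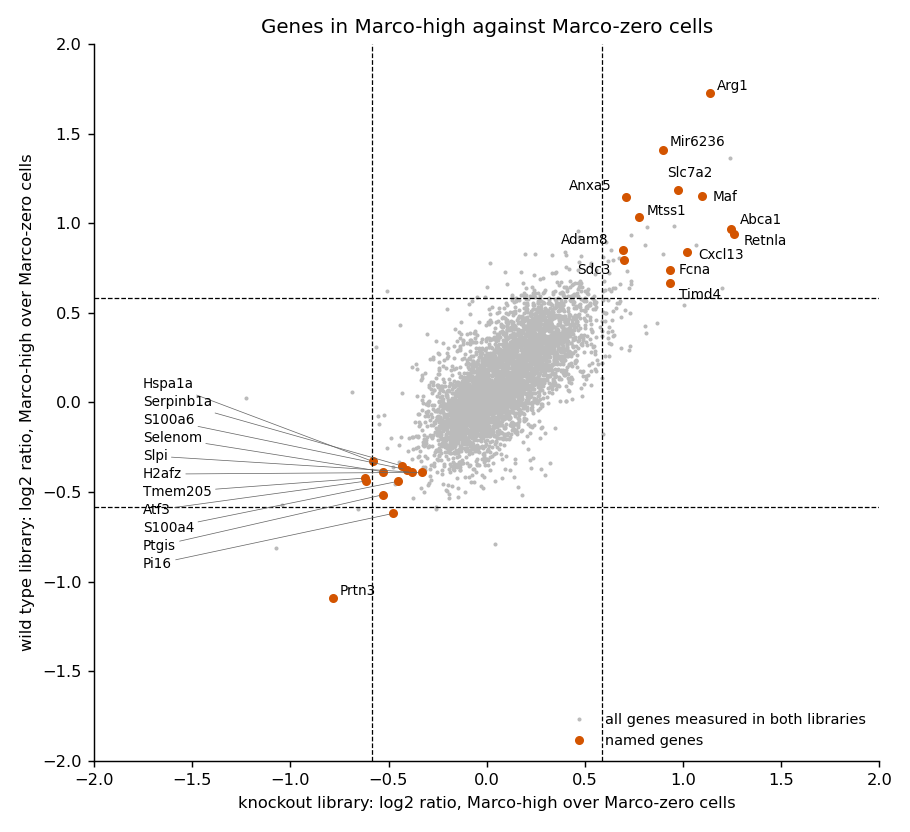
Log2 ratio of Marco-high over Marco-zero cells, knockout library on the x axis and wild type library on the y axis. Each grey point is 1 of the 4714 genes measured in both, orange points are named genes, and dashed lines mark 1.5-fold. Named genes of the higher side, such as Arg1 at 1.14 and 1.72, lie in the upper right and Prtn3, at -0.78 and -1.09, in the lower left. Hbb-bs, the 1 gene outside the plotted range, is not drawn.

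Arg1 and Slc7a2, both given as markers of these cells, were higher, while the other genes of arginine use were not as a group. Arg1 (ENSMUSG00000019987), which encodes the arginase that splits arginine into ornithine and urea, ranked first of the genes named for both libraries by the smaller of its ratios. It was at 433 CPM in knockout Marco-high cells (exact Poisson 95% interval 415 to 452) against 197 CPM in Marco-zero cells (194 to 200), a log2 ratio of 1.14 (exact conditional interval 1.07 to 1.2). In the wild type library it was at 163 CPM in Marco-high cells (151 to 177) against 48.8 CPM in Marco-zero cells (46.9 to 50.7), a log2 ratio of 1.72 (1.60 to 1.85). The arginine transporter gene Slc7a2 (ENSMUSG00000031596) was at 78.4 against 39.4 CPM in the knockout (0.97, 0.82 to 1.13) and at 81.6 against 35.3 CPM in the wild type library (1.19, 1.01 to 1.36), Marco-high against Marco-zero cells. The intervals of the Marco-high and Marco-zero groups did not overlap for either gene in either library. They cover counting error only, and both genes had been picked on earlier results of these libraries. How many of all genes had intervals apart was not counted, so no result is drawn from this. Of 8 measured genes of arginine, polyamine and cationic amino acid use, these 2 were the only ones at least 1.5-fold higher in both libraries, and 0 were lower. The list's medians were 0.01 in the knockout library and 0.28 in the wild type one, and -0.15 and 0.08 under TMM factors. The ornithine decarboxylase gene Odc1 had log2 ratios of -0.09 and 0.55, and the polyamine acetyltransferase gene Sat1 0.29 and 0.27.

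Timd4 and Adam8, given with Arg1 and Slc7a2 as markers of these cells, were higher too. Timd4 (ENSMUSG00000055546), a receptor for phosphatidylserine on dying cells, was at 228 CPM in knockout Marco-high cells against 119 CPM in Marco-zero cells (log2 ratio 0.94, 0.85 to 1.02). Within the wild type library it was at 244 against 153 CPM (0.67, 0.57 to 0.77). Adam8 (ENSMUSG00000025473), a membrane-bound metalloprotease of leukocytes, was at 52.4 against 32.1 CPM in the knockout (0.69, 0.51 to 0.87) and at 105 against 57.6 CPM in the wild type library (0.85, 0.70 to 1.0). Under TMM factors Arg1 and Slc7a2 stayed 1.5-fold higher in both libraries, and Timd4 and Adam8 did not. These markers had been picked on earlier results of the same libraries, so their direction is no independent evidence.

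The markers marked shares of the cells, not all of them. After thinning to 5000 UMIs, Timd4 was seen in 48.1% of knockout Marco-high cells and 29.3% of Marco-zero cells, and in 54.7% and 35.6% in the wild type library. Arg1 was seen in 50% of knockout Marco-high and 31.3% of Marco-zero cells, and in 33.8% and 12.3% in the wild type library. Slc7a2 was seen in 29.0% and 15.7% in the knockout and in 28.0% and 15.1% in the wild type library. Adam8 was seen in 18.7% and 12.7%, and in 33.3% and 21.3%. Thinning left out 10 knockout and 14 wild type Marco-high cells and 60 and 179 Marco-zero cells. Unthinned, Timd4 was in 68.0% of knockout Marco-high against 42.0% of Marco-zero cells and in 69.0% against 47.5% of wild type ones. Unthinned, Arg1 was in 64.7% against 48.1% and in 39.7% against 21.6%. Of the knockout Marco-high cells 17.2% (exact binomial interval 12.8 to 22.3%) showed none of these 4 genes and 1.91% (0.622 to 4.40%) all 4, against 39.5% (38.1 to 41.0%) and 0.544% (0.352 to 0.801%) of Marco-zero cells. In the wild type library 18.2% (13.4 to 23.9%) showed none and 2.67% (0.985 to 5.71%) all 4, against 40.6% (39.0 to 42.3%) and 0.380% (0.203 to 0.649%).

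Other genes higher in both libraries spanned a transcription factor, lipid exporters, secreted recognition proteins and membrane-shaping proteins. Maf (ENSMUSG00000055435), a basic leucine zipper transcription factor of differentiated macrophages, was at 90.8 CPM in knockout Marco-high cells against 41.9 CPM in Marco-zero cells (log2 ratio 1.10, 0.95 to 1.24), and at 164 against 73.2 CPM in the wild type library (1.15, 1.03 to 1.27). Fcna, which encodes the lectin ficolin A of the complement lectin pathway, was at 783 against 410 CPM in the knockout (0.93) and at 1225 against 734 CPM in the wild type library (0.74). Sdc3, a heparan sulphate proteoglycan of the cell surface, had ratios of 0.70 and 0.79, and Anxa5, a binder of phosphatidylserine, 0.71 and 1.15. Mtss1, which links membrane curvature to actin, had ratios of 0.78 and 1.04. The feature annotated as Mir6236 had ratios of 0.90 and 1.41.

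Retnla and Cxcl13 were higher on the sums, but few cells carried much of that. Retnla, a secreted resistin-like protein of alternative activation, was at 252 CPM in knockout Marco-high cells against 105 CPM in Marco-zero cells (log2 ratio 1.26) and at 1326 against 690 CPM in the wild type library (0.94). The 10 highest Marco-high cells held 80.6% of its UMIs in the knockout library and 62.6% in the wild type one, where the same measure was 28.8% and 38.8% for Arg1 and 17.8% and 17.7% for Timd4. Its thinned share was 17.9% of knockout Marco-high against 14.4% of Marco-zero cells, and 44.9% against 38.2% in the wild type library. Cxcl13, the chemoattractant of B cells, was at 1132 against 557 CPM in the knockout (1.02), with 49.3% of its Marco-high UMIs in 10 cells, and at 6486 against 3628 CPM in the wild type library (0.84). Its thinned share was 56.1% against 38.1%, and 95.1% against 80.9%.

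Lipid export and lysosomal genes were above the median gene as groups. Abca1, the cholesterol exporter induced by liver X receptors, was at 94.9 CPM in knockout Marco-high cells against 39.5 CPM in Marco-zero cells (log2 ratio 1.24, 1.10 to 1.38) and at 106 against 53.7 CPM in the wild type library (0.97, 0.81 to 1.11). Abcg1, a partner exporter, had ratios of 1.07 and 0.88. Mylip, a ubiquitin ligase for the LDL receptor that is also induced by liver X receptors, had 0.68 and 0.55. Of 15 measured genes of cholesterol efflux and lipid storage, 3 were 1.5-fold higher in each library and 0 lower, with medians of 0.28 and 0.20. Only 2 of them, Abca1 and Abcg1, were 1.5-fold higher in both libraries, against 0.849% of all genes measured in both. In the wild type library Abcg1, at 36.5 against 19.4 CPM, met the 20 CPM minimum only through Marco-high cells. Its place in this count is thus no independent result. Of the list, 12 genes lay above 0 in both libraries, where 53% of all genes did. Fabp4 (-0.29 and -0.45) and Fabp5 (-0.23 and -0.24) lay below 0 in both. Among 30 measured lysosomal genes 2 were 1.5-fold higher in the knockout library and 3 in the wild type one, 0 were lower, and 23 lay above 0 in both, with medians of 0.24 and 0.25. They included Psap, the precursor of the sphingolipid activator proteins (872 against 565 CPM in the knockout library and 1144 against 737 CPM in the wild type one), and the protease gene Ctsd (0.60 and 0.63). The cholesterol transporter gene Npc1 had ratios of 0.48 and 0.82. At 29.2 against 16.1 CPM in the wild type library, Npc1 met the minimum there only through Marco-high cells. Cholesterol synthesis genes could be measured for 4 in each library and had medians of -0.13 and 0.24.

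Promoter sequences were read for the defining gene and for a pair of genes higher with it, because Maf, whose family binds elements built on the half-site TGCTGA, was higher in the same cells. The 250 bases before the start are from RefSeq on GRCm38.p6, 5′ to 3′ on the gene's strand, and capitals mark TGCTGA or its reverse complement. The windows are chr1:120505025-120505274 on the minus strand for Marco, chr11:46810549-46810798 on the plus strand for Timd4 and chr4:53159896-53160145 on the minus strand for Abca1.
Marco: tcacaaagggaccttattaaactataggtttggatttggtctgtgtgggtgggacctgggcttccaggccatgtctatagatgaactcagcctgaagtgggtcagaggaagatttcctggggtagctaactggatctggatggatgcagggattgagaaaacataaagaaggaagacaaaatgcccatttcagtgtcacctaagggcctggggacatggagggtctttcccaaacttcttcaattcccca
Timd4: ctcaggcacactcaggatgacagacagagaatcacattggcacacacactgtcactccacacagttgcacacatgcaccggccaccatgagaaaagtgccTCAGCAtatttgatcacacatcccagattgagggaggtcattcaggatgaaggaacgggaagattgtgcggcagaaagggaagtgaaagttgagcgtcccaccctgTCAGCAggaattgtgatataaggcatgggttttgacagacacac
Abca1: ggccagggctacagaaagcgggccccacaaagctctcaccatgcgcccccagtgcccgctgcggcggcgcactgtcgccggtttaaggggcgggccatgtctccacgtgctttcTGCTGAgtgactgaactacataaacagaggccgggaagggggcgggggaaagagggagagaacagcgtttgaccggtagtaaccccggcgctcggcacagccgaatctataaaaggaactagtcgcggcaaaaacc
The Timd4 window held 2 matches, the Abca1 window 1 and the Marco window 0. Of the 40 genes higher in both libraries, 31 had windows in the table, and 12 of their 39 windows held TGCTGA on either strand (30.8%), against 16.1% of all 32851 windows. On the same windows TGACNNNGC, the antioxidant response element, was in 25.6% against 10.2% of all, TGACTCA of AP-1 in 7.69% against 4.46%, and CACGTG, the E-box, in 5.13% against 6.02%. The liver X receptor element, a repeat of AGGTCA with a spacer of 4 bases, was in 0 of the 39 windows and in 5 of all windows. Both genes of the printed pair are among the 12 of these 31 genes with TGCTGA, so they do not stand for the rest. All windows include those of genes not measured in these cells. The motifs and the pair were picked once expression values were known, and a match is a description of letters only.

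Most genes of uptake and complement measured in both libraries lay on the higher side in both, mostly with small differences. So did 53% of all genes measured in both, and 0.849% were 1.5-fold higher in both. Above 0 in both lay 8 of 11 apoptotic cell uptake genes and 8 of 12 complement genes. Under TMM factors the knockout and wild type medians were 0.07 and 0.13 for uptake and 0.04 and 0.02 for complement genes. With so few genes no result is drawn from these counts. Of 6 scavenger receptor genes measured in both libraries besides Marco, 0 were 1.5-fold higher in both and 5 lay above 0 in both. In the wild type library alone 2 were counted as 1.5-fold higher, Cd163 (20.1 against 3.48 CPM) and Stab1 (31.8 against 11.5 CPM). They reached 20 CPM only in wild type Marco-high cells. Msr1, the other macrophage class A receptor, was at 526 against 450 CPM in the knockout (log2 ratio 0.22, Marco-high over Marco-zero) and at 540 against 431 CPM in the wild type library (0.32). Cd36, a class B receptor, had ratios of 0.50 and 0.51. Among 11 apoptotic cell uptake genes measured in both, Timd4 was the 1 gene 1.5-fold higher in both, and the receptor kinase gene Mertk had 0.42 and 0.49. Anxa1 of the same list lay below 0 in both, at -0.17 and -0.21. Of 12 complement genes measured in both, 2 were 1.5-fold higher in both and 0 lower: C3, the central component (0.73 and 0.64), and Cd55, which speeds decay of the C3 convertases (23.6 against 9.42 CPM in the knockout and 37.8 against 14.1 CPM in the wild type library). Cd55 met the 20 CPM minimum only through Marco-high cells, so its place in this count is no independent result. The complement receptor gene Vsig4 had ratios of 0.55 and 0.52.

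**Figure D3:**
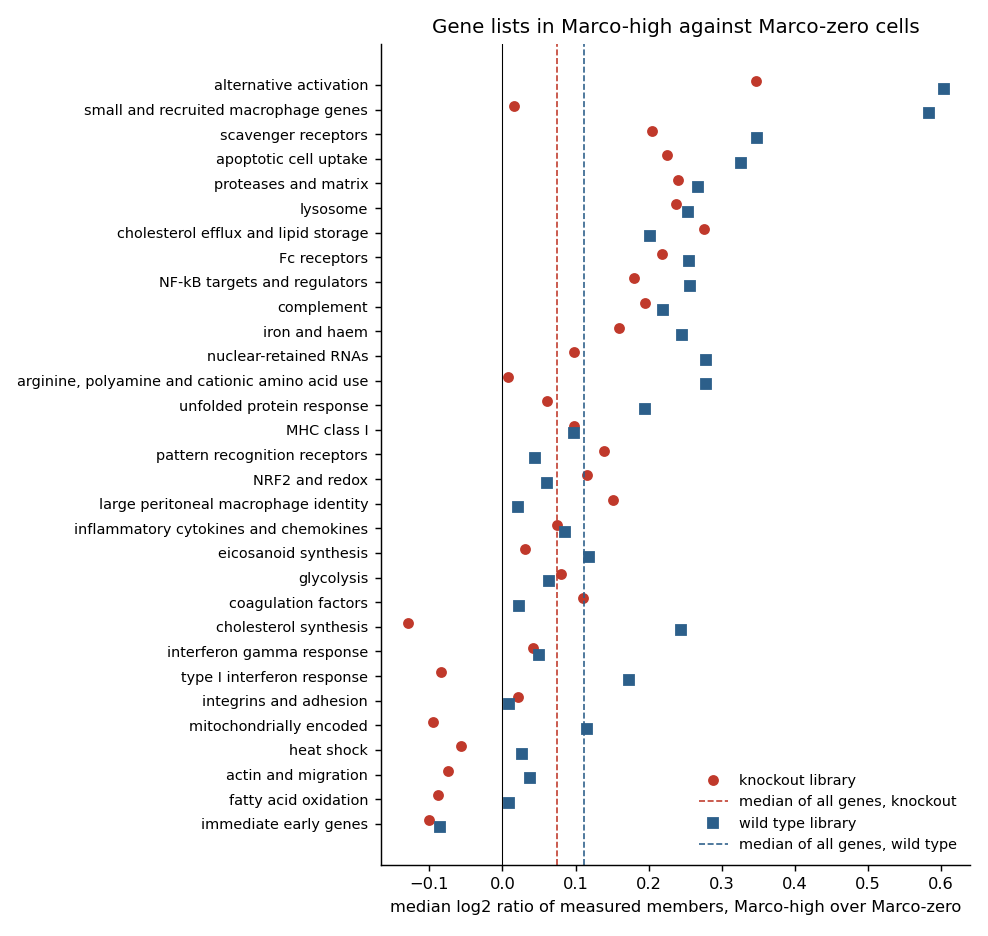
Median log2 ratio of Marco-high over Marco-zero cells for the measured members of each pathway list with at least 4 measured members per library, leaving out the list of markers given with the cells. Circles are the knockout and squares the wild type library, and dashed lines are the median of all genes, 0.07 and 0.11. Alternative activation has the highest medians, 0.35 and 0.60, and immediate early genes lie at -0.10 and -0.09. Given markers that belong to other lists, such as Arg1 in alternative activation, were kept in those lists.

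Alternative activation genes had the highest medians, 0.35 in the knockout (7 measured) and 0.60 in the wild type library (8 measured), with Arg1 and Retnla as the 2 genes 1.5-fold higher in both. Clec10a, a galactose-binding lectin, had ratios of 0.54 and 0.58, and the transglutaminase gene F13a1 0.35 and 0.62. Ccl24 (-0.38 and -0.20) and Klf4 (-0.01 and -0.02) lay below 0 in both libraries. Both medians include Arg1, a marker picked on these libraries, and Retnla, most of whose Marco-high UMIs lay in 10 cells. The wild type median includes Mrc1, which reached 20 CPM only in Marco-high cells. Genes of large peritoneal macrophage identity had medians of 0.15 and 0.02 (27 measured in each), with Timd4, Cxcl13 and the acute phase gene Saa3 the 3 genes 1.5-fold higher in both and 0 lower. Adgre1 of the identity list (0.35 and 0.25) was required by the rule in every cell. Inflammatory cytokine and chemokine genes had medians of 0.07 and 0.09, and NF-kB genes 0.18 and 0.26. NRF2 and redox genes had medians of 0.12 and 0.06 with 0 of 24 past 1.5-fold in both, the haem oxygenase gene Hmox1 at 0.43 and 0.65. Actin and migration genes had medians of -0.07 and 0.04, with S100a4 at -0.45 and -0.44. Mitochondrially encoded transcripts had medians of -0.09 and 0.12, and the median mitochondrial share was 1.41% of UMIs in knockout Marco-high cells against 1.51% in Marco-zero cells, and 0.763% against 0.676% in the wild type library. Under TMM factors every list median moved by the same -0.15 and -0.20, which took the large peritoneal macrophage identity median of the wild type library to -0.18, the inflammatory medians to -0.08 and -0.11 and the NRF2 medians to -0.04 and -0.14, while those of alternative activation (0.19 and 0.41), lysosomal (0.08 and 0.06) and scavenger receptor genes (0.05 and 0.15) stayed above 0.

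Immediate early genes, which respond to handling among other stimuli, lay slightly below 0 as a group, while the heat shock list had medians of -0.06 and 0.03. Of 19 immediate early genes measured in both libraries 11 lay below 0 and 5 above 0 in both, with medians of -0.10 and -0.09 and 0 past 1.5-fold in both. Atf3, a stress-induced transcription factor, was at 59.1 CPM in knockout Marco-high cells against 91.1 CPM in Marco-zero cells (log2 ratio -0.62, -0.79 to -0.45) and at 325 against 441 CPM in the wild type library (-0.44, -0.52 to -0.36). The chaperone gene Hspa1a had ratios of -0.58 and -0.33, and Fos -0.29 and -0.37. Whether handling differed between the groups of cells was not tested.

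Prtn3 had the lowest ratios among the 24 genes named for both libraries. Prtn3 (ENSMUSG00000057729), the serine protease proteinase 3 best known from neutrophil granules, was at 378 CPM in knockout Marco-high cells (361 to 396) against 652 CPM in Marco-zero cells (647 to 658), a log2 ratio of -0.78 (-0.85 to -0.72). Within the wild type library it was at 176 CPM (163 to 189) against 376 CPM (371 to 381), a log2 ratio of -1.09 (-1.21 to -0.98). Its thinned share was 75.6% against 89.3% of cells in the knockout and 42.7% against 72.1% in the wild type library. Camp, Ngp and S100a9, other neutrophil genes, were at 0 in Marco-high cells, as given above.

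The other genes named for both libraries on the lower side differed by less than Prtn3. Ptgis, which encodes prostacyclin synthase, was at 385 against 555 CPM in the knockout (log2 ratio -0.53, Marco-high over Marco-zero) and at 355 against 508 CPM in the wild type library (-0.51). The protease inhibitor gene Slpi, among the most abundant transcripts here, had ratios of -0.38 and -0.39, and Serpinb1a, an inhibitor of neutrophil proteases, -0.43 and -0.35. The calcium-binding protein gene S100a6 had -0.41 and -0.38, the peptidase inhibitor gene Pi16 -0.47 and -0.62, the histone variant gene H2afz -0.33 and -0.39, and the selenoprotein gene Selenom -0.53 and -0.39. Tmem205 had ratios of -0.62 and -0.42. Besides Prtn3, the genes 1.5-fold lower in both libraries included Ccl2 and Hbb-bs, a haemoglobin transcript, and they were listed once their values were seen. The monocyte chemoattractant gene Ccl2 was at 13.8 against 22.4 CPM in the knockout (-0.66) and at 59.7 against 90.7 CPM in the wild type library (-0.60). Hbb-bs, left out of the ranking as a haemoglobin gene, differed by more than Prtn3. It was at 11 against 68.2 CPM in the knockout (-2.53) and at 1.56 against 32.2 CPM in the wild type library (-3.69). Without cells with 5 or more haemoglobin UMIs, 3 of the 4 genes stayed below.

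In 5 steps of Marco level, most of these genes followed a slope. From Marco-zero cells through the cells below the top 5%, split at their median, to the Marco-high cells, split at theirs, Maf in the knockout library was at 41.9, 47.3, 62.8, 73.4 and 109.6 CPM. In the wild type library Maf was at 73.2, 86.9, 111, 132 and 198 CPM. Fcna was at 410, 493, 565, 696 and 877 CPM in the knockout library and at 734, 786, 964, 1176 and 1278 CPM in the wild type one. Arg1 was at 197, 261, 340.0, 348 and 525 CPM in the knockout and at 48.8, 76.5, 101, 125 and 205 CPM in the wild type library. Each of these genes was higher at every step in both libraries. Prtn3 was at 652, 547, 545, 424 and 329.9 CPM in the knockout and at 376, 320.2, 251, 229.5 and 118 CPM in the wild type library, lower at every step. Timd4 was not even: it was at 119, 173, 223, 180.4 and 279.8 CPM in the knockout library and at 153, 184, 243, 221 and 268 CPM in the wild type one. Retnla was below the Marco-zero level in both middle steps of both libraries, at 60.8 and 61.8 CPM in the knockout library and 579 and 584 CPM in the wild type one. The median depth of the steps ran from 14507 to 21486.5 UMIs in the knockout and from 14044.5 to 18312 UMIs in the wild type library, and its part in these slopes was not tested by them. With Marco-zero cells weighted to the depth of Marco-high cells, 35 of the 40 genes stayed 1.5-fold higher in both libraries and all 40 above 0.

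**Figure D4:**
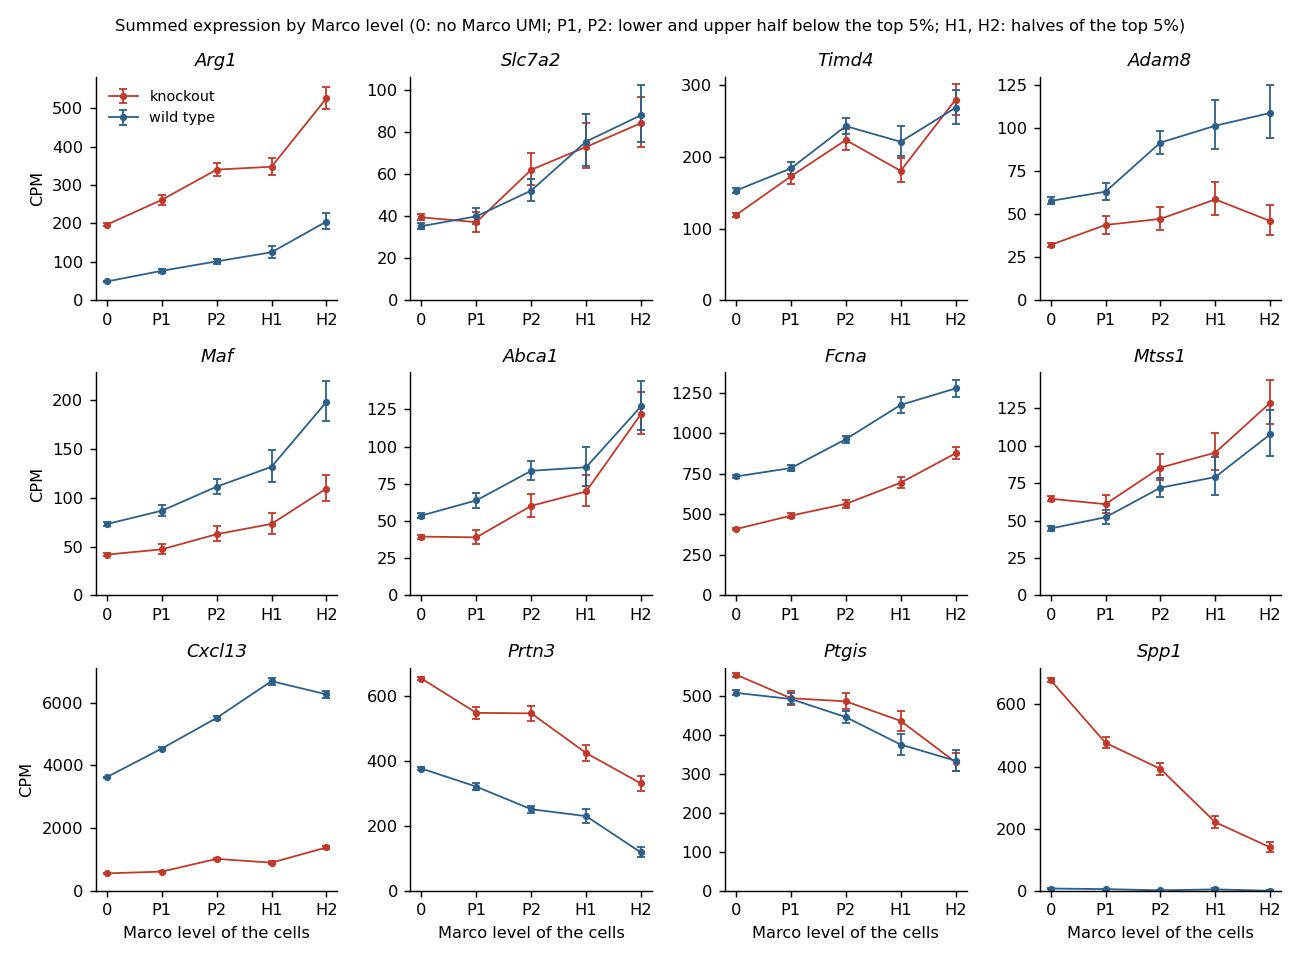
Summed expression in CPM of 12 genes (y axes, from 0) at 5 steps of Marco level: no Marco UMI, P1 and P2 for cells below the top 5% under and over their median, and H1 and H2 for Marco-high cells under and over theirs. Red is the knockout and blue the wild type library, and bars are exact Poisson 95% intervals. Arg1, Maf and Fcna stand higher at each step and Prtn3 lower, while Timd4 dips at H1.

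A part of the Marco-high cells carried markers of another macrophage kind. Lyve1, a hyaluronan receptor, and Folr2, a folate receptor, are known as markers of tissue-resident macrophages of other sites. A UMI of either gene was in 9.19% of knockout Marco-high cells (exact binomial interval 6.04 to 13.3%) against 3.22% of Marco-zero cells (2.73 to 3.77%). Within the wild type library it was in 22.2% (17.1 to 28.0%) against 8.83% (7.93 to 9.81%). Lyve1 was at 56.0 CPM in wild type Marco-high cells against 10.7 CPM in Marco-zero cells, with 77.7% of the Marco-high UMIs in 10 cells, and at 15.8 against 2.79 CPM in the knockout, where 10 cells held all of them. Without any cell holding a UMI of these genes, 33 genes were 1.5-fold higher in both libraries, 30 of them among the 40.

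Between the libraries, Marco-high cells differed by about as many genes as Marco-zero cells. In Marco-high cells 113 of 5415 genes at 20 CPM or more passed 2-fold with the knockout library above (2.09%) and 115 with it below (2.12%). In Marco-zero cells 91 of 5037 were higher (1.81%) and 104 lower (2.06%). The median gene stood at 0.18 in Marco-high and 0.22 in Marco-zero cells, and TMM factors shifted ratios in Marco-high cells by -0.19, leaving 59 higher and 171 lower, so that 25.7% of counted genes were higher against 49.6% on library totals. The Spp1 gene, which encodes the secreted phosphoprotein osteopontin, differed most among genes at 50 CPM. It was at 182 CPM in knockout and 2.35 CPM in wild type Marco-high cells (log2 ratio 5.77, 5.06 to 6.47), and at 678 and 7.29 CPM in Marco-zero cells (6.36). Within the knockout library its thinned share was 20.6% in Marco-high cells against 40.7% in Marco-zero cells (log2 ratio of the CPM -1.89, -1.99 to -1.80), with 66.8% of the Marco-high UMIs in 10 cells. Arg1 had a ratio of knockout over wild type of 1.40 in Marco-high cells and 1.99 in Marco-zero cells. The neutrophil chemoattractant gene Cxcl2 had ratios of -4.20 and -4.37, and the NF-kB inhibitor gene Tnfaip3 -4.58 and -4.73.

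**Figure D5:**
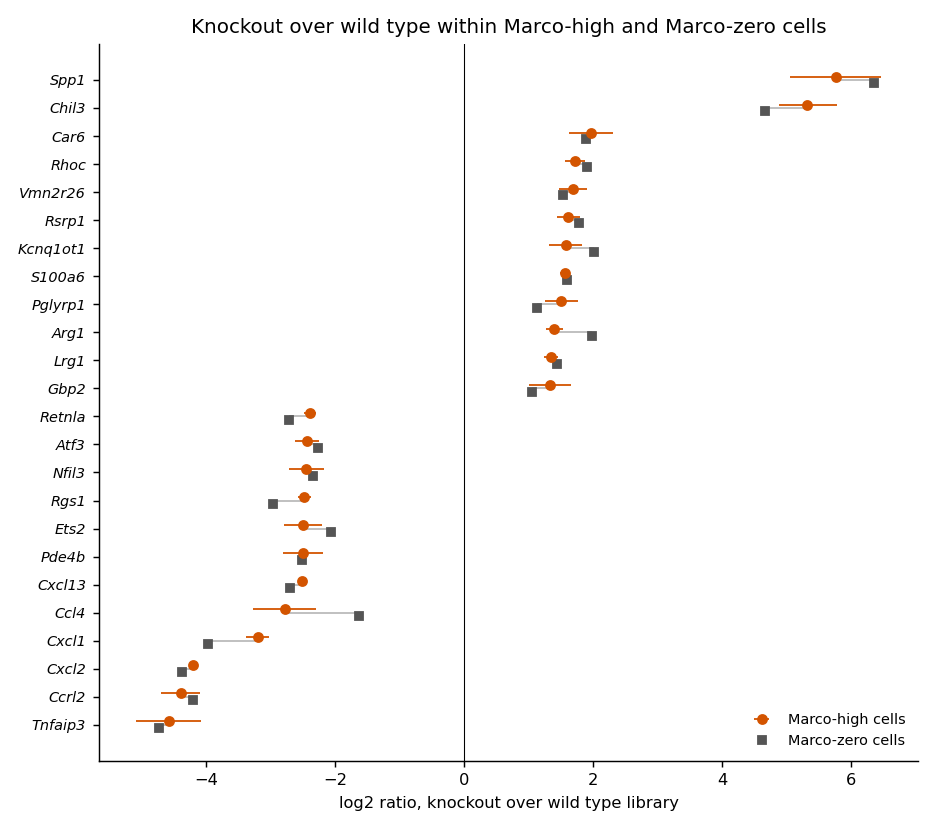
Log2 ratio of knockout over wild type CPM for the 12 highest and 12 lowest genes at 50 CPM or more in Marco-high cells. Orange circles with exact 95% counting intervals are Marco-high cells and grey squares Marco-zero cells. Spp1 stands at 5.77 and 6.36, and Ccl4 at -2.78 and -1.63, the widest gap drawn.

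Among genes at 50 CPM or more in both libraries, those whose Marco-high ratios lay farthest apart were described without a test of the difference. The ratio was higher in the knockout than in the wild type library for Cxcl1 (0.59 and -0.18), Cited2 (0.18 and -0.52), Clec2g (1.2 and 0.64), Pcmt1 (0.08 and -0.42) and Rgs1 (0.12 and -0.38). It was lower in the knockout library for Neat1 (0.20 and 0.83), Arg1 (1.14 and 1.72), Jam2 (0.01 and 0.52), Mir6236 (0.90 and 1.41) and Dnase2a (0.33 and 0.82). For Cxcl1, 53.4% of the UMIs of knockout Marco-high cells lay in 10 cells. Among genes named for the wild type library alone, the ceruloplasmin gene Cp was at 57.3 CPM in Marco-high against 23.8 CPM in Marco-zero cells (1.23). The chemokine gene Ccl4 was at 51.9 against 19.4 CPM (1.38), with 86.4% of its Marco-high UMIs in 10 cells. In the knockout, where it was under the minimum, Ccl4 was at 6.70 against 5.60 CPM (0.22), a wider gap between the libraries than for the genes above.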

How the data were processed

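The authors deposited UMI counts for each gene and cell barcode. Per the file headers these came from Cell Ranger 6.1.2. Bcl2fastq, Seurat 4.1.0 and mm9 are named, with no role, in the submitters' processing notes. Feature identifiers were looked up in GENCODE M21 (GRCm38) for positions. The libraries held 110956482 UMIs over 6706 knockout barcodes and 96869041 UMIs over 6315 wild type barcodes, where 8000 cells had been expected.

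The members, gene lists and markers were chosen with earlier results of these data known. UMIs were summed over the cells of each group within a library and expressed as CPM. The log2 ratio of Marco-high over Marco-zero cells had 1 CPM added on both sides, and its interval is an exact conditional binomial one. With 1 library per genotype there was no test. No doublets were removed in the main result. Scrublet's automatic thresholds called 1 barcode per library, so an alternative left out the highest scores at 0.8% per 1000 barcodes, 324 and 313.

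Named genes were at 50 CPM or more in the higher group of both libraries: the 12 with the highest smaller ratio and the 12 with the lowest larger ratio of the libraries. The 5 highest and lowest of each library, the 5 differing most each way between libraries, the markers, and up to 4 members of each list followed. Marco, Ankrd22, the class II genes of the rule, and mitochondrial, ribosomal, immunoglobulin, haemoglobin and sex-linked genes and unnamed gene models were left out of the ranking. The values of 1 gene are not reported here. The genes named between libraries, the 12 highest and 12 lowest at 50 CPM in Marco-high cells, were ranked by a rule added later. The calculation was tested on simulated data with planted differences. Shares of cells come from cells thinned to 5000 UMIs (seed 0), shallower cells left out, unless called unthinned. Shares by doublet score or by Marco UMIs were not thinned unless so stated.

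Matrices were handled in Python 3.11.15 (scanpy 1.11.5, anndata 0.12.19, pandas 2.3.3), intervals came from scipy 1.17.1 with numpy 2.4.6, and plots from matplotlib 3.10.9. Scaling factors alone were taken from edgeR 4.0.16 under R 4.3.3.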

Additional observations from a re-analysis of the deposited data

How the results depend on the processing

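No paired analysis was possible because each genotype had 1 library. Of the 40 genes 1.5-fold higher in Marco-high cells of both libraries, all 40 stayed above 0 in both under each alternative on cells, depth, weight or scaling except the top 2% of cells, where 39 did. The number counted was 147 with the top 2% of cells, 15 with the top 10%, 73 with equal weight per cell, 9 against cells with Marco UMIs below the top 5%, 15 with TMM and 14 with median-of-ratios factors, 193 with no minimum CPM and 22 at 50 CPM. The number 1.5-fold lower, 4 in the main result, was 10 with the top 2%, 1 with the top 10%, 1 in cells thinned to 5000 UMIs before the choice, 1 against cells with Marco UMIs below the top 5%, 12 under each set of factors, 22 with no minimum CPM and 1 at 50 CPM. Slc7a2, Maf, Mtss1 and Mir6236 were 1.5-fold higher in both libraries under every setting on cells, depth and weight and under TMM factors.

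Between the libraries, 113 genes were 2-fold higher in Marco-high cells, and the number was 199 with the top 2%, 59 with TMM and 57 with median-of-ratios factors, 756 with no minimum CPM and 50 at 50 CPM. The 115 lower genes became 311 with no minimum CPM and 73 at 50 CPM. Of the named log2 ratios past 1.5-fold, 2 changed sign, both with the top 2% of cells: Clec2g in the wild type library, at -0.11, and Cxcl1 in the knockout library, at -0.31. Smaller ratios crossed 0 more often, among them F13a1 in the knockout library at -0.21 without cycling cells and Hspa1a in the wild type library at 0.19 with the top 2%. Why these values moved was not tested, beyond the smaller groups and gene sets that the settings make. Leaving out Lyve1 or Folr2 cells, haemoglobin-rich cells or Marco-high cells under 5 Marco UMIs was chosen after seeing the data. At 4922628 and 3837790 UMIs per Marco-high group, depth limits genes near 20 CPM most.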

Other observations

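Marco UMIs were also found outside class II low cells. Among Adgre1-positive cells with 5 or more class II UMIs per 10000, which took no part in the comparisons, 85 of 771 in the knockout library held a Marco UMI (11%, with an exact 95% binomial interval of 8.90 to 13.5%), and 271 of 1357 in the wild type library did (20%, 17.9 to 22.2%). Marco was at 20.8 CPM in these knockout and 48.0 CPM in these wild type cells. Timd4 stood at 50.4 CPM in these knockout against 108 CPM in these wild type cells, and Arg1 at 227 against 56.0 CPM. The median depth was 16643 UMIs in these knockout and 15162 UMIs in these wild type cells. B cell barcodes, which should lack Marco, held it in 1 of 22 knockout cases (0.115 to 22.8%, 10.4 CPM, median depth 3469 UMIs) and in 0 of 28 wild type cases (0 to 12.3%, median depth 4330 UMIs). The knockout share lies within that background's interval, but so does the 14.5% of knockout class II low cells. So few and shallow barcodes cannot decide whether these UMIs are expression, and no conclusion is drawn.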
